A study of Mus musculus with 2 samples.

Results

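Resident-like CD8 T cells of mouse gliomas were taken as the CD8 T cells that carried Itga1 or Cxcr6 and little of the genes that mark the other CD8 states. There were 486 of them among 15723 cells kept from the whole series, 47 of 7967 cells in the EM library and 439 of 7756 cells in the PBS library. A cell was a member when its raw UMIs (unique molecular identifiers, each 1 captured RNA molecule) summed to 2 or more for Cd3d, Cd3e and Cd3g, to 2 or more for Cd8a and Cd8b1, and to 2 or more for Itga1 and Cxcr6. It also had to have 0 UMIs of Cd4 and of Foxp3, at most 1 of Pdcd1 and Havcr2 together, at most 1 of Gzmk and Ly6c2 together, at most 1 of Xcl1, and at most 2 of the cell cycle genes Mki67, Top2a, Birc5 and Ccna2 together. The cells were chosen by these UMI counts, so the levels of the 18 genes in them are set by the choice and are given as description. The name resident-like is that of the rule. It was set beside Ccl5 and Fasl, which the rule did not use. In PBS both stood above their level in the other CD8 T cells by less than 2-fold, and in EM the interval of each ratio held equality. Of genes reported as higher in resident cells, 9 of 23 measured lay above the other CD8 T cells in EM (39.1%, against 51.7% of all genes measured). In PBS, 17 of 22 did (77.3%, against 60.6%).

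Resident memory CD8 T cells are T cells that stay in a tissue instead of returning to the blood. The integrin subunit encoded by Itga1 (CD49a) binds collagen, Cxcr6 is the receptor of the chemokine Cxcl16, and the integrin subunit encoded by Itgae (CD103) pairs with that of Itgb7 and binds E-cadherin. Cells that leave tissue instead carry S1pr1, the receptor for the lipid that draws T cells into lymph, Ccr7, which guides entry into lymph nodes, and Klf2, a transcription factor that drives S1pr1.

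The series holds 1 single-cell RNA library of each treatment, and both libraries are of living immune cells that were CD45.2 positive and CD45.1 negative, called endogenous by the submitters, sorted from glioma tissue. The EM library came from tumours treated with EM, with 72 h in its title, and the PBS library from tumours treated with PBS, for which the labels give no time. EM is not spelled out in the labels, nor are the strain, glioma line and age of the mice or the number of animals pooled, so EM against PBS is a comparison of 2 libraries and carries no test. Intervals given here are exact 95% intervals that cover counting error alone. A gene was called between groups when its summed CPM differed at least 2-fold and the interval of the ratio left out equality, among genes with at least 20 UMIs.

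The EM library was shallower, with 19385631 UMIs over 8039 barcodes, against 45043934 UMIs over 8333 barcodes in the PBS library. The other CD8 T cells had a median of 2396 UMIs per cell in EM and 4992 in PBS. The resident-like cells were shallower than these in both libraries, so unthinned shares of cells with a UMI are at unlike depth. They had a median of 1738 UMIs per cell in EM and 3885 in PBS, and 100823 UMIs in all in EM against 1779419 in PBS. A single EM UMI is thus 9.92 CPM (counts per 1000000 UMIs of the summed cells), and a gene with 0 UMIs there can still lie up to the limit that a count of 0 allows, taken as 3 counts or 29.8 CPM (36.6 CPM as the upper end of the exact interval). The libraries also differed in the RNA of sex-linked genes within the resident-like cells. Xist, the RNA of the inactive X chromosome, stood at 258 CPM in EM and 1.69 CPM in PBS, and the Y-linked Ddx3y had 0 UMIs in EM against 201 CPM in PBS. The part of this difference in the results was not tested. The libraries shared 66 cell barcodes, carried by 0 EM and 2 PBS resident-like cells.

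Resident-like cells made up a smaller share of the CD8 T cells in EM. They were 1.98% of 2375 CD8 T cells in EM (interval 1.46 to 2.62) and 14.2% of 3082 in PBS (13.0 to 15.5), a ratio of 0.139. After every cell was thinned to 1000 UMIs the shares were 2.46% of 1384 CD8 T cells in EM (1.71 to 3.42) and 12.7% of 1530 in PBS (11.1 to 14.5), and the ratio was 0.193. After this thinning 34 EM and 195 PBS cells met the rule. Of these, only 13 in EM and 67 in PBS also met it with all UMIs, so the thinned shares are largely of other cells. The rule that chose the cells also sets these shares, so they are a description of how the libraries pass its terms.

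The terms of the rule were met unevenly. Itga1 and Cxcr6 themselves were at like levels over all CD8 T cells, Itga1 with 238 CPM in EM and 217 CPM in PBS, and Cxcr6 with 306 CPM in EM and 329 CPM in PBS. CD8 T cells with 2 or more UMIs of the pair were 37.6% in EM and 64.9% in PBS, but 15.3% in EM and 16.7% in PBS at 1000 UMIs per cell. Of these cells, 90.1% in EM and 46.4% in PBS carried more than 1 UMI of Gzmk and Ly6c2 and so fell outside the rule, and the shares were 79.2% in EM and 10.9% in PBS at 1000 UMIs per cell. Ly6c2, a surface protein of effector and memory CD8 T cells, stood at 4103 CPM over the CD8 T cells in EM and 629 CPM in PBS. Pdcd1 and Havcr2, receptors that mark exhausted T cells, were the other way round, with more than 1 UMI in 18.1% of the Itga1 or Cxcr6 cells in EM and 56.0% in PBS. With the Gzmk and Ly6c2 term left out, a choice made after seeing the data, 24.6% of CD8 T cells in EM and 25.5% in PBS met the rule, a ratio of 0.963. Within the resident-like cells Itga1 stood at 605 CPM in EM and 556 CPM in PBS and Cxcr6 at 694 CPM in EM and 516 CPM in PBS, while Ly6c2 was held to 129 CPM in EM and 43.8 CPM in PBS.

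**Figure D1:**
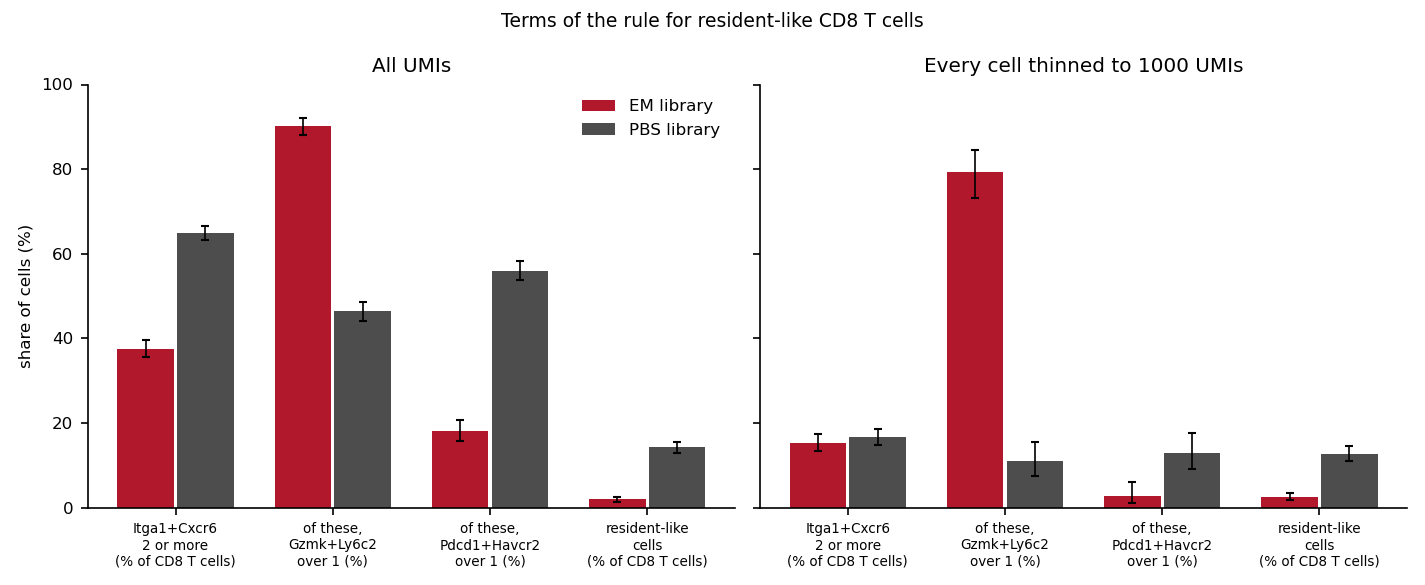
Share of cells in percent that met each term of the rule, with all UMIs (left) and with each cell thinned to 1000 UMIs (right), for the EM library (red) and the PBS library (grey); bars are shares and whiskers exact 95% binomial intervals. Itga1 and Cxcr6 at 2 or more is close in the libraries after thinning, at 15.3% in EM and 16.7% in PBS, while Gzmk and Ly6c2 over 1 is far apart in both panels.

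At the edge of the rule in PBS, Itgae and Ccl5 were close on either side, while Trdc, Tcf7, Klf2 and Cd69 were further apart. Cells with exactly 2 UMIs of Itga1 and Cxcr6 numbered 28 in EM and 114 in PBS, and cells that met every other term but had 1 UMI numbered 54 in EM and 122 in PBS. In PBS, Itgae stood at 158 CPM just inside and 171 CPM just outside, and Ccl5 at 14489 CPM just inside and 13248 CPM just outside. Also in PBS, Trdc stood at 90.2 CPM just inside and 20.8 CPM just outside, Tcf7 at 7.31 CPM inside and 27.8 CPM outside, Klf2 at 17.1 CPM inside and 32.4 CPM outside, and Cd69 at 149 CPM inside and 218 CPM outside. In EM, Itgae stood at 206 CPM just inside and 125 CPM just outside, and Ccl5 at 4591 CPM just inside and 5194 CPM just outside.

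Ccl5 and Fasl, the markers of these cells that the rule did not use, were lower in EM resident-like cells than in PBS ones. Ccl5, a chemokine that draws T cells and myeloid cells, stood at 4691 CPM in EM resident-like cells (4278 to 5134) and 14615 CPM in PBS ones (14438 to 14794), a log2 ratio of -1.64 (-1.77 to -1.51). The median cell held 3.47 Ccl5 UMIs per 1000 UMIs in EM and 12.4 in PBS. The interquartile range ran from 0.48 to 8.76 in EM and from 7.37 to 20.3 in PBS, so the cells of the libraries overlapped. Fasl, the ligand that triggers death of target cells through Fas, stood at 79.3 CPM in EM (34.3 to 156, 8 UMIs) and 248 CPM in PBS (225 to 272), a log2 ratio of -1.64 (-2.86 to -0.65). With cells thinned before the rule was applied the ratios were -0.92 for Ccl5 and -1.10 for Fasl and neither was called, and without cells that carried gamma delta or NK genes the Fasl ratio was -0.68. Both genes were also lower in EM in the other CD8 T cells, with log2 ratios of -0.84 for Ccl5 and -1.04 for Fasl, and whether the ratios differ between the kinds of cell was not tested. Ccl5 was detected in 76.6% of EM and 98.6% of PBS resident-like cells, and after thinning in 71.7% of EM and 96.8% of PBS ones. B cells, which should lack it, gave 10.9% in EM and 26.8% in PBS before thinning, with medians of 2332 UMIs in EM and 3275 in PBS, and 7.37% in EM and 7.14% in PBS after it. Fasl was detected in 14.9% of EM and 58.5% of PBS resident-like cells, and after thinning in 10.9% of EM and 22.1% of PBS ones, against 0.921% of macrophages in EM (median 964 UMIs) and 1.06% in PBS (median 8637 UMIs).

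Against the other CD8 T cells of the same library, Ccl5 and Fasl stood higher in the resident-like cells of PBS by less than the 2-fold limit, and in EM the intervals of both ratios held equality. Whether the ratios differ between the libraries was not tested. Ccl5 stood at 4691 CPM in resident-like cells and 4669 CPM in other CD8 T cells in EM, a log2 ratio of 0.01 (-0.13 to 0.14). In PBS it stood at 14615 CPM in resident-like cells and 8379 CPM in other CD8 T cells, a log2 ratio of 0.80 (0.78 to 0.82). The PBS cells overlapped, with interquartile ranges of 7.37 to 20.3 Ccl5 UMIs per 1000 UMIs in resident-like cells and 2.02 to 16.02 in other CD8 T cells. Fasl stood at 79.3 CPM in resident-like cells and 82.1 CPM in other CD8 T cells in EM, and at 248 CPM in resident-like cells and 168 CPM in other CD8 T cells in PBS (0.41 to 0.70 on the log2 scale). The other CD8 T cells were of unlike makeup, since cells above the limit for Gzmk and Ly6c2 but within that for Pdcd1 and Havcr2 were 1830 of 2328 in EM and 705 of 2643 in PBS. A comparison was also made with the 166 EM and 233 PBS CD8 T cells that met every other term but had 0 or 1 UMI of Itga1 and Cxcr6, called Itga1/Cxcr6-low. Against these the log2 ratio of Ccl5 was -0.42 in EM and 0.35 in PBS, and that of Fasl was -0.34 in EM (-1.68 to 0.81) and 0.43 in PBS (0.16 to 0.70). After thinning, Fasl was detected in 10.9% of resident-like and 11.5% of Itga1/Cxcr6-low cells in EM, and in 22.1% of resident-like and 21.1% of Itga1/Cxcr6-low cells in PBS.

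**Figure D2:**
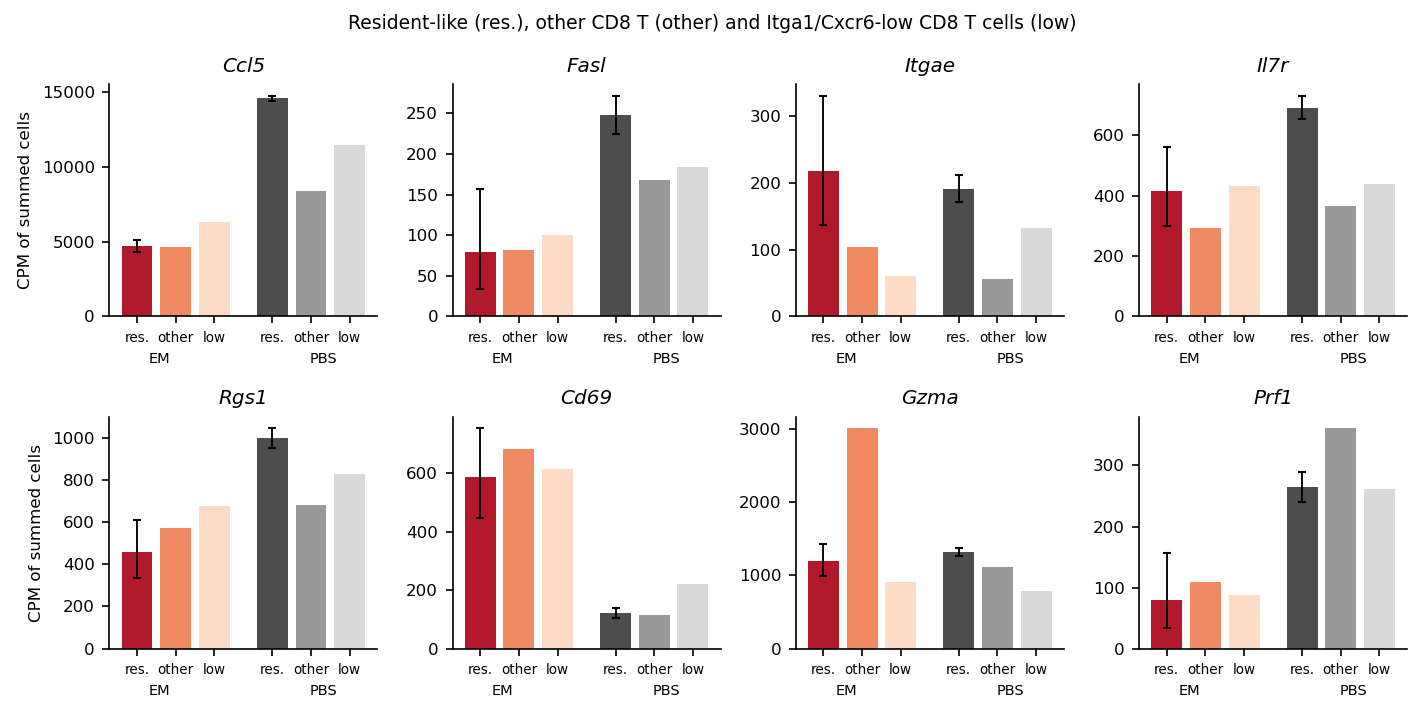
Level of 8 genes in CPM of summed cells for resident-like, other and Itga1/Cxcr6-low CD8 T cells of each library; bars are levels and whiskers on the resident-like bars are exact 95% Poisson intervals. Ccl5, Fasl, Il7r and Rgs1 are highest in PBS resident-like cells, Itgae is higher in resident-like than in other CD8 T cells in both libraries, and Cd69 is higher in all 3 EM groups than in the PBS ones.

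In EM, resident-like cells had 207 genes called higher than in other CD8 T cells (2.1% of 9880 genes tested) and 85 called lower (0.86%). In PBS, 211 genes were called higher (1.77% of 11914) and 491 lower (4.12%). Only 5 genes were called higher in both libraries (0.0508% of 9834 tested in both) and 15 lower (0.153%). The 5 were Itgae, P2rx7, Trdc, Rtn4rl1 and Klc4. Rtn4rl1, of the Nogo receptor family, and Klc4, a kinesin light chain gene, were scarce, with 4 EM UMIs each and 9.55 CPM for Rtn4rl1 and 8.43 CPM for Klc4 in PBS resident-like cells, and are named only to complete the count.

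Itgae was the integrin gene called higher in the resident-like cells of both libraries. It stood at 218 CPM in resident-like cells and 104 CPM in other CD8 T cells in EM, a log2 ratio of 1.06 (0.38 to 1.67). In PBS it stood at 191 CPM in resident-like cells and 55.9 CPM in other CD8 T cells, a log2 ratio of 1.77 (1.58 to 1.95). It was detected in 23.4% of EM and 27.8% of PBS resident-like cells, and after thinning in 17.4% of EM and 13.9% of PBS ones, against 0.230% of macrophages in EM and 4.23% in PBS before thinning. Most resident-like cells therefore had no Itgae UMI. With cells thinned before the rule was applied the log2 ratio was 0.26 in EM and 0.99 in PBS and the call was lost in both, as it was without the Pdcd1 and Havcr2 term, at 0.73 in EM and 0.83 in PBS. Against the Itga1/Cxcr6-low cells it was 1.85 in EM and 0.52 in PBS.

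P2rx7, a receptor for extracellular ATP found on resident memory cells, stood at 89.3 CPM in resident-like cells and 31.6 CPM in other CD8 T cells in EM, on 9 UMIs. In PBS it stood at 111 CPM in resident-like cells and 52.9 CPM in other CD8 T cells, with log2 ratios of 1.50 in EM and 1.07 in PBS. The EM ratio turned to -0.29 at 3 or more UMIs of Itga1 and Cxcr6, and both calls were lost against the Itga1/Cxcr6-low cells, at 0.73 in EM and 0.34 in PBS. P2rx7 was detected in 14.9% of EM and 24.1% of PBS resident-like cells, against 5.98% of macrophages in EM and 49.8% in PBS. After thinning the shares were 6.52% in EM and 10.3% in PBS, against 2.63% of macrophages in EM and 13.1% in PBS. The share of P2rx7 due to free RNA was not measured. Trdc, the constant gene of the T cell receptor delta chain, stood at 79.3 CPM in resident-like cells and 8.48 CPM in other CD8 T cells in EM, where 1 cell held all 8 UMIs. In PBS it stood at 50.6 CPM in resident-like cells and 9.37 CPM in other CD8 T cells, spread over 19 cells. Of those 19 cells, 9 had no UMI of Cd8b1, the beta chain of the CD8 heterodimer, as had 62 of all 439 PBS resident-like cells. Trdc UMIs were found in 1.33% of other CD8 T cells in EM and 2.31% in PBS. The whole gamma delta marker list, with all 5 genes detected in each group, summed to 843 CPM in resident-like cells and 310 CPM in other CD8 T cells in EM, and to 619 CPM in resident-like cells and 456 CPM in other CD8 T cells in PBS. Of its genes measured, 4 of 4 were higher in the resident-like cells of EM, 3 of them called, with a median log2 ratio of 1.78, and 2 of 2 in PBS, 0 of them called, with a median of 0.36. A gamma chain constant gene was detected in 23 of the 47 EM and 244 of the 439 PBS resident-like cells. Trac, the alpha chain constant gene, was detected in 85.1% of EM and 95.7% of PBS ones. Cells that carried gamma delta or NK genes were those with any UMI of Trdc, Trgc1, Trgc2, Trgc4, Ncr1 or Klrb1c. Leaving them out left 24 of the 47 EM and 180 of the 439 PBS resident-like cells. Most of the cells left out had no Trdc UMI. The same step left 1755 of all 2375 CD8 T cells in EM and 1383 of all 3082 in PBS.

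S1pr1, Ccr7 and Tcf7 were called lower in PBS resident-like cells than in other CD8 T cells, all at levels under 50 CPM, and none of them was called in EM. S1pr1 stood at 5.06 CPM in resident-like cells and 21.2 CPM in other CD8 T cells of PBS, a log2 ratio of -2.07 (-3.21 to -1.13). Ccr7 stood at 5.06 CPM in resident-like cells and 16.1 CPM in other CD8 T cells of PBS (-1.67). Tcf7, a transcription factor of naive and memory T cells, stood at 8.43 CPM in resident-like cells and 30.7 CPM in other CD8 T cells of PBS (-1.86). In EM, S1pr1 had 1 UMI and Ccr7 0 UMIs in resident-like cells, and since a count of 0 allows up to 29.8 CPM, Ccr7 could not be told from its 16.3 CPM in the other CD8 T cells. Tcf7 stood at 79.3 CPM in resident-like cells and 110 CPM in other CD8 T cells of EM (-1.69 to 0.52 on the log2 scale). Klf2 lay lower in the resident-like cells of both libraries but was called in neither, at 169 CPM in resident-like cells and 247 CPM in other CD8 T cells in EM (-0.55, interval -1.34 to 0.13) and at 23.04 CPM in resident-like cells and 44.3 CPM in other CD8 T cells in PBS (-0.94, interval -1.44 to -0.49). Over the whole list of genes that resident cells are known to lower, counted at a mean of 50 CPM or more, 6 of 6 were lower in EM, 0 of them called, with a median of -0.53. In PBS, 3 of 4 were higher and 1 was called lower, with a median of 0.25. Against the Itga1/Cxcr6-low cells of PBS, S1pr1 was at 5.06 CPM in resident-like cells and 4.73 CPM in low cells, while Tcf7 was at 8.43 CPM in resident-like cells and 57.9 CPM in low cells (-2.78).

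The Il7r gene, which encodes the receptor for the survival cytokine interleukin 7, stood at 417 CPM in resident-like cells and 294 CPM in other CD8 T cells in EM, and at 692 CPM in resident-like cells and 366 CPM in other CD8 T cells in PBS. Its log2 ratios of 0.50 in EM (0.03 to 0.94) and 0.92 in PBS (0.83 to 1.01) lay under the 2-fold limit. Cdh1, which encodes E-cadherin, the ligand of the Itgae integrin, stood at 97.2 CPM in resident-like cells and 38.9 CPM in other CD8 T cells of PBS, a log2 ratio of 1.32 (1.07 to 1.57). In EM it stood at 119 CPM in resident-like cells and 128 CPM in other CD8 T cells. Cx3cr1, a chemokine receptor of circulating effector cells, stood at 21.9 CPM in resident-like cells and 54.3 CPM in other CD8 T cells of PBS (-1.31), and the chemokine gene Ccl3 at 165 CPM in resident-like cells and 407 CPM in other CD8 T cells of PBS (-1.30). Without the Pdcd1 and Havcr2 term the ratio of Ccl3 turned to 0.32 and that of Cx3cr1 was -0.19. The PBS CD8 T cells above the limit for Pdcd1 and Havcr2 held 534 CPM of Ccl3 and 66.4 CPM of Cx3cr1. Other genes called higher in PBS resident-like cells were Qpct, which encodes glutaminyl cyclase, at 62.9 CPM in resident-like cells and 26.7 CPM in other CD8 T cells (1.24), and Dtx4, a ubiquitin ligase gene, at 51.1 CPM in resident-like cells and 21.1 CPM in other CD8 T cells (1.28). After thinning none of Cdh1, Qpct, Dtx4 and Ccl3 was called, with PBS ratios of 0.57 for Cdh1, 0.36 for Dtx4 and -0.41 for Ccl3, and that of Qpct turned to -0.032. Qpct was detected in 21.0% of resident-like cells and 23.7% of macrophages of PBS, and after thinning in 6.61% and 4.76% of them.

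Gzma, Tox and Prdm1 were called against the other CD8 T cells in EM and not in PBS, and the difference between the libraries was not tested. Gzma, a granzyme of killer cells, stood at 1190 CPM in resident-like cells and 3013 CPM in other CD8 T cells in EM, a log2 ratio of -1.34 (-1.61 to -1.08). In PBS it stood at 1312 CPM in resident-like cells and 1114 CPM in other CD8 T cells. The EM ratio turned to 0.38 against the Itga1/Cxcr6-low cells and to 1.38 without the Gzmk and Ly6c2 term. Tox, a transcription factor of chronically stimulated T cells, stood at 327 CPM in resident-like cells and 156 CPM in other CD8 T cells in EM (1.07), and at 283 CPM in resident-like cells and 361 CPM in other CD8 T cells in PBS (-0.35). Without the Gzmk and Ly6c2 term the EM ratio of Tox was -0.27. Prdm1, the gene of the residency factor Blimp-1, was called higher in EM, at 99.2 CPM in resident-like cells and 43.6 CPM in other CD8 T cells, but its log2 ratio of 1.19 was 0.31 without 1 cell that carried antibody genes. The ratio was -0.12 in PBS. Zfp683, the gene of the residency factor Hobit, was near the lower limit of measurement, with 1 UMI in EM and 18 UMIs in PBS resident-like cells.

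The 15 genes called lower in both libraries were mostly genes of DNA replication and mitosis (Mcm3, Nusap1, Ube2c, Smc2, Stmn1, Cenpa, Lig1, Pclaf, Rrm2, Tuba1b, Racgap1 and Uhrf1), which the cell cycle term of the rule makes lower by choice. The others were Gzmf, Nrgn, a calmodulin-binding protein gene, and Psat1, of serine synthesis. Gzmf, a granzyme gene, stood at 9.92 CPM in resident-like cells and 60.6 CPM in other CD8 T cells in EM, on 1 UMI with an interval of -7.92 to -0.12. In PBS it stood at 15.7 CPM in resident-like cells and 107 CPM in other CD8 T cells (-2.76). Against the Itga1/Cxcr6-low cells of PBS it was not lower, with a ratio of 0.93.

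**Figure D3:**
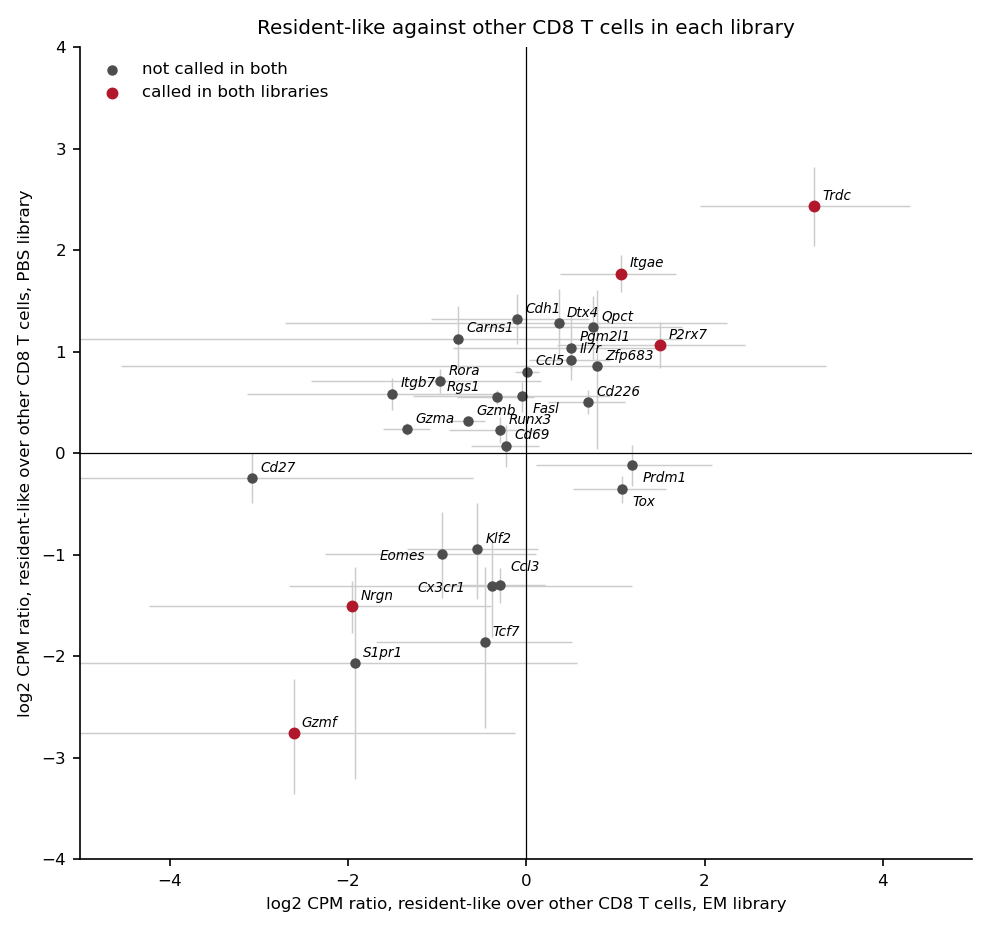
Log2 ratio of CPM, resident-like over other CD8 T cells, in the EM library (horizontal) and the PBS library (vertical) for genes named in the text, with exact 95% intervals as grey lines, cut where they leave the axes; cell cycle genes are left out. Red points are genes called in both libraries: Itgae, P2rx7 and Trdc lie above equality in each, Gzmf and Nrgn below.

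Gene lists were compared between resident-like and other CD8 T cells by counts and medians, without a test. A list gene counted as measured when the mean of its CPM in the compared groups was at least 50. Over all genes measured, the median log2 ratio of resident-like over other CD8 T cells was 0.02 in EM (3467 genes) and 0.09 in PBS (3702 genes). Genes reported as higher in resident cells had a median of -0.11 in EM, 9 of 23 higher (39.1%) and 3 called higher, and 0.21 in PBS, 17 of 22 higher (77.3%) and 3 called higher. Over all genes measured, 51.7% were higher in EM, with 107 of 3467 called higher, and 60.6% in PBS, with 5 of 3702 called higher. Against the Itga1/Cxcr6-low cells the medians of that list were -0.02 in EM and 0.09 in PBS. Genes of the response to TGF-beta, the cytokine that induces Itgae, had a median of 0.28 in EM (8 of 11 higher) and 0.44 in PBS (10 of 11 higher). Against the Itga1/Cxcr6-low cells the medians of the TGF-beta list were 0.08 in EM (6 of 11 higher) and 0.13 in PBS (8 of 11 higher). Glycolysis genes were lower in 12 of 12 measured in EM (median -0.26) and 12 of 13 in PBS (median -0.54). Oxidative phosphorylation genes were lower in 24 of 30 in EM (median -0.17) and 30 of 31 in PBS (median -0.32). These directions did not all hold against the Itga1/Cxcr6-low cells, which met the same cell cycle term. There, 8 of 13 glycolysis genes were higher in EM (median 0.10) and 3 of 13 in PBS (median -0.09), and 16 of 30 oxidative phosphorylation genes were higher in EM (median 0.02) and 6 of 29 in PBS (median -0.10). Over all genes measured the medians against those cells were -0.02 in EM and 0.03 in PBS.

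Resident-like cells were also split by the genes detected in them. Of the EM cells, 9 had UMIs of Itga1 alone, 20 of Cxcr6 alone and 18 of both. Of the PBS cells, 72 had UMIs of Itga1 alone, 114 of Cxcr6 alone and 253 of both. Exactly 2 UMIs of the pair were found in 28 of the 47 EM and 114 of the 439 PBS cells. A cell with UMIs of Itga1 alone may thus still carry Cxcr6, or the reverse, so these counts cannot show separate kinds of cell. In PBS, Itgae stood at 353 CPM in cells with Itga1 alone, 205 CPM in cells with both and 57.2 CPM in cells with Cxcr6 alone. Il7r followed the same order, at 944, 755 and 394 CPM in those cells, and so did Gzma, at 1801, 1502 and 576 CPM. In EM, Itgae stood at 511 CPM in cells with Itga1 alone, 135 CPM in cells with both and 168 CPM in cells with Cxcr6 alone. Gzma did not follow the order of PBS in EM. It stood at 56.8 CPM in EM cells with Itga1 alone, 3531 CPM with both and 262 CPM with Cxcr6 alone. Il7r stood at 511 CPM, 471 CPM and 355 CPM in those EM cells. The EM cells held 17602 UMIs in all with Itga1 alone, 29736 with both and 53485 with Cxcr6 alone. The EM levels of Itgae and Il7r thus rest on few UMIs, and their order in EM is not settled. PBS cells split by Itgae itself differed in other genes as well. Gzma stood at 3155 CPM in the 122 cells with an Itgae UMI and 585 CPM in the 317 without, P2rx7 at 236 CPM with and 61.1 CPM without, and Il7r at 1063 CPM with and 546 CPM without. Ccl5 was close in the same cells, at 14008 CPM with an Itgae UMI and 14855 CPM without. In EM, Gzma stood at 2309 CPM in 11 cells with an Itgae UMI and 868 CPM in 36 cells without, and Il7r at 888 CPM with and 281 CPM without. These splits carry no test, and the part of depth per cell in them was not tested.

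EM against PBS in resident-like cells gave 255 genes called higher (3.19% of 7998 tested) and 293 called lower (3.66%). Over all 3642 genes measured the median log2 ratio was -0.03, with 48.1% higher. Of these 3642 genes, 194 were called higher and 238 called lower. In the other CD8 T cells, with more UMIs, 457 genes were called higher (3.74% of 12212) and 1512 lower (12.4%). A single cell held most of the UMIs of 9 of the 255 genes called higher and of 3 of the 293 called lower.

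Type I interferon response genes were higher in EM resident-like cells. These genes are induced when interferon alpha or beta binds its receptor and activates transcription factors, Irf9 among them. Of the 46 genes of the list in the files, 43 were higher in EM, 1 was lower and 2 had no direction, and 27 were called higher against 0 called lower. The 34 measured genes had a median log2 ratio of 1.48, beside -0.03 over all genes measured. The median in the other CD8 T cells was 2.10. Every resident-like cell held at least 1 UMI of the list. The median cell had 8.84 UMIs of the list per 1000 UMIs in EM and 3.33 in PBS, with interquartile ranges of 7.09 to 13.5 in EM and 2.41 to 4.47 in PBS that did not overlap. The lowest EM cell was at 2.30 and the highest PBS cell at 33.9, so the whole ranges did overlap.

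Ifi27l2a, an interferon-induced gene, had the largest UMI count behind such a ratio. It stood at 1061 CPM in EM resident-like cells (870 to 1282) and 101 CPM in PBS ones (86.9 to 117), a log2 ratio of 3.39 (3.03 to 3.74). It was detected in 38 of 47 EM and 101 of 439 PBS resident-like cells, and after thinning in 58.7% of EM and 8.88% of PBS ones. Macrophages gave 52.6% in EM and 12.3% in PBS after thinning and B cells 32.6% in EM and 11.4% in PBS, but these cells can express the gene too, so the share due to free RNA was not measured. Usp18, which encodes the enzyme that removes Isg15 from proteins and dampens the receptor, stood at 109 CPM in EM and 7.87 CPM in PBS, a log2 ratio of 3.79 (2.51 to 5.04). Irf7, the factor that amplifies interferon production, stood at 99.2 CPM in EM and 15.7 CPM in PBS (2.66). The gene of the list counted as lower, Ifit2, had 0 UMIs in EM (up to 36.6 CPM by the exact interval) and 36.5 CPM in PBS (28.2 to 46.6), was not called, and has no settled direction.

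**Figure D4:**
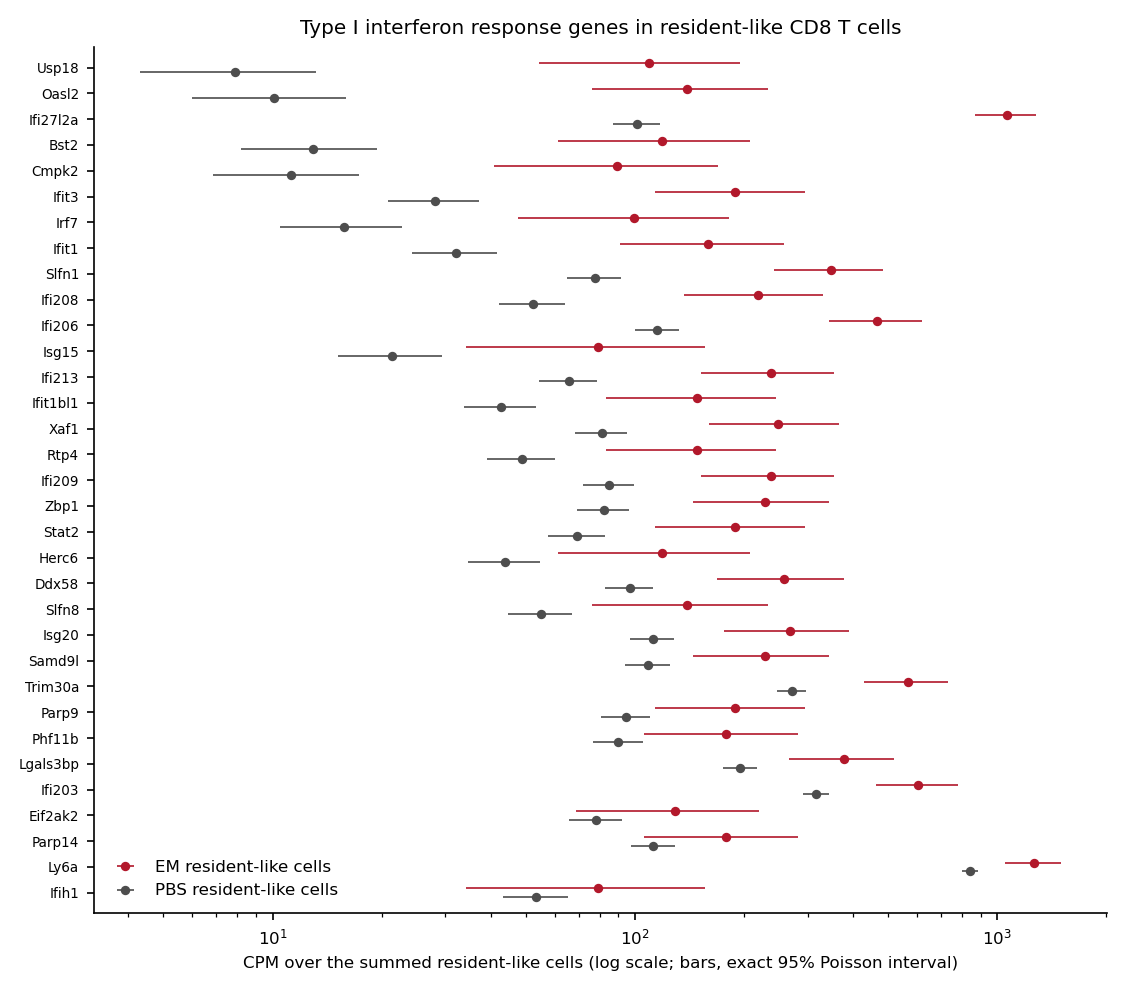
Level in CPM, on a log axis, of type I interferon response genes in EM resident-like cells (red) and PBS resident-like cells (grey); points are summed levels and bars exact 95% Poisson intervals. All genes shown lie higher in EM, and the intervals of the last genes listed (Eif2ak2, Parp14 and Ifih1) overlap between the libraries.

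The promoters of these genes were searched for the letters GAAANNGAAA on either strand, a form of the interferon-stimulated response element, the site of the factors that interferon activates. RefSeq windows from 250 bases before to 50 bases after each start, on GRCm38.p6, were used. The motif lay in 22 of the 35 list genes with a window (62.9%), in 13 of the 22 called genes with a window (59.1%) and in 3.99% of all 27025 genes. Genes can hold several windows, and by window the shares were 59.5% of 42 for the list and 3.44% of all 32851. The 6 sequences printed here are the 200 bases before the start of the called genes with the highest ratios that had 1 window, chosen after their values were seen, and are shown so that promoters with and without the letters can be compared. Capitals mark each match. They lie at chr5:114896734-114896933 (plus strand), chr8:71537473-71537672 (minus), chr12:26469015-26469214 (plus), chr19:34583329-34583528 (plus), chr7:141266425-141266624 (minus) and chr19:34640689-34640888 (plus), each written 5′ to 3′ along its gene.
Oasl2: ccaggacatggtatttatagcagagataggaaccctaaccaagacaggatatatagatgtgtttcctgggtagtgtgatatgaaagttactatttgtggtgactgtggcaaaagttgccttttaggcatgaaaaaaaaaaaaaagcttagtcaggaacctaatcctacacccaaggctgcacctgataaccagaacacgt
Bst2: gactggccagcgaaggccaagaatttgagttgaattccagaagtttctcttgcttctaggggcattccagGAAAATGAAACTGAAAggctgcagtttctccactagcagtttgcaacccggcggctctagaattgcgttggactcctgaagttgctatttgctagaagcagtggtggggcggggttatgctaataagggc
Cmpk2: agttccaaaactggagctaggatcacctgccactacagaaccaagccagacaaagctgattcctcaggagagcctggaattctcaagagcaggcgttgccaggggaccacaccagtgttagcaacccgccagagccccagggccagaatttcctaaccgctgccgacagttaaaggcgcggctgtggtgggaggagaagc
Ifit3: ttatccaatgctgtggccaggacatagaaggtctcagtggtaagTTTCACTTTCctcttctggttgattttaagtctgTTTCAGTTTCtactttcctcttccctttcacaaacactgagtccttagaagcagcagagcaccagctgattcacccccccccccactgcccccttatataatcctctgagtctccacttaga
Irf7: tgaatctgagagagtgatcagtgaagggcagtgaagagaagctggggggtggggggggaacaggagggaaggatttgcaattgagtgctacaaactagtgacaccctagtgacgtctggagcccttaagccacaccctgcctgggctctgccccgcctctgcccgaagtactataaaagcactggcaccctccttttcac
Ifit1: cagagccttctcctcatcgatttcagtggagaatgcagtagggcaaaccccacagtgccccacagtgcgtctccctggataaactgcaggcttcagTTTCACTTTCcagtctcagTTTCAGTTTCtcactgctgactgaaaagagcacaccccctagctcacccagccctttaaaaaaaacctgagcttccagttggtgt
Bst2 encodes tetherin, which holds virus particles at the cell surface, and its matches start 130 and 124 bases before the start and overlap. Ifit3 has matches at 156 and 122 bases before the start and Ifit1 at 104 and 85, and both belong to the Ifit family of antiviral genes. The windows of Oasl2, Cmpk2 and Irf7 hold no match, which says only that these letters are not there.

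The genes of the printed promoters were all higher in EM with or without the letters. Oasl2, an oligoadenylate synthetase-like gene, stood at 139 CPM in EM and 10.1 CPM in PBS, a log2 ratio of 3.78 (2.66 to 4.87), and Bst2 at 119 CPM in EM and 12.9 CPM in PBS (3.20). Cmpk2, a mitochondrial nucleotide kinase gene, stood at 89.3 CPM in EM and 11.2 CPM in PBS (2.99), Ifit3 at 188 CPM in EM and 28.1 CPM in PBS (2.75), and Ifit1 at 159 CPM in EM and 32.0 CPM in PBS (2.31).

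Of the other genes with the highest ratios, Ifi214 (2.40), Ifitm1 (2.65) and Ube2l6 (2.36) are also interferon-induced. Ifitm1, a membrane protein that hinders virus entry, stood at 456 CPM in EM resident-like cells and 72.5 CPM in PBS ones. Klf2 stood at 169 CPM in EM and on 41 UMIs in PBS, a log2 ratio of 2.87 (1.96 to 3.72), and fell under the limit at 1.38 when both Itga1 and Cxcr6 had to be detected. Hmgn1, a chromatin protein gene, had a ratio of 2.49, Timmdc1, which helps assemble respiratory complex I, 2.43, and Cdon, a cell surface co-receptor of hedgehog signals, 2.40, on 15, 7 and 9 EM UMIs.

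Among 11 measured genes of the interferon gamma response, 9 were higher and 2 called, with a median of 0.35, beside 0.91 in the other CD8 T cells. For MHC class I presentation, 16 of 19 genes lay higher with a median of 0.60, but only Psmb9, an immunoproteasome subunit gene, was called, at 198 CPM in EM and 87.1 CPM in PBS (1.19). Tap1, a peptide transporter gene, was not called, at 278 CPM in EM and 293 CPM in PBS (-0.68 to 0.47). Ifng itself stood at 208 CPM in EM and 105 CPM in PBS, a log2 ratio of 0.99 (0.26 to 1.64), just under the limit.

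Residency genes did not move together between EM and PBS. Of 24 measured genes reported as higher in resident cells, 11 were higher in EM, 3 of them called, and 7 were called lower, with a median of -0.25. Over all 3642 genes measured, 194 were called higher and 238 called lower. Cd69, the early activation protein that holds T cells in tissue by binding the S1pr1 receptor, stood at 585 CPM in EM resident-like cells (445 to 755) and 122 CPM in PBS ones (106 to 139), a log2 ratio of 2.26. It was detected in 63.8% of EM and 26.7% of PBS cells, and after thinning in 43.5% of EM and 10.9% of PBS ones, against 9.81% of macrophages in EM and 7.52% in PBS after thinning. In the other CD8 T cells the log2 ratio of Cd69 was 2.56. Cxcr3, a chemokine receptor of effector T cells, stood at 109 CPM in EM and 27.5 CPM in PBS (1.99), but its ratio was 0.18 when both Itga1 and Cxcr6 had to be detected. Itgae was not called, at 218 CPM in EM (137 to 330) and 191 CPM in PBS (171 to 212).

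Lower in EM were Rgs1 and Rgs2, genes of regulators of G protein signalling. Rgs1 stood at 456 CPM in EM and 999 CPM in PBS (-1.13), and its call was lost under 4 alternatives, at -0.60 after thinning. Rgs2 stood at 397 CPM in EM and 1513 CPM in PBS (-1.93). Rora, a nuclear receptor gene, stood at 59.5 CPM in EM (21.8 to 130) and 412 CPM in PBS (383 to 443), a log2 ratio of -2.79, against -1.11 in the other CD8 T cells. Of 5 measured genes that resident cells are known to lower, 3 were higher in EM and 1 was called. Tcf7, which lay under 50 CPM on average and so outside those 5, stood at 79.3 CPM in EM (8 UMIs) and 8.43 CPM in PBS, a log2 ratio of 3.23 (1.79 to 4.56).

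Integrin genes other than Itga1 and Itgae split. Itgb1, the partner of the Itga1 subunit, stood at 575 CPM in EM resident-like cells (437 to 744) and 153 CPM in PBS ones (136 to 173), a log2 ratio of 1.91. Itgb7, the partner of the Itgae subunit, stood at 49.6 CPM in EM (16.1 to 116) and 210 CPM in PBS (189 to 232), a ratio of -2.08. Itgav, whose integrins can activate TGF-beta, stood at 59.5 CPM in EM and 405 CPM in PBS (-2.77). Of 10 measured integrin genes 4 were higher and 6 lower, with a median of -0.25. The Itgb7 ratio was -0.17 and no longer called without the Gzmk and Ly6c2 term.

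The main granzyme genes were not called between EM and PBS resident-like cells, while genes of perforin and granule release were lower in EM. Gzmb stood at 2271 CPM in EM and 2488 CPM in PBS (-0.33 to 0.06 on the log2 scale) and Gzma at 1190 CPM in EM and 1312 CPM in PBS (-0.42 to 0.12). In the other CD8 T cells Gzma was higher in EM by 1.43 and Gzmb by 0.84, and the difference between the kinds of cell was not tested. Prf1, which encodes the pore protein perforin, stood at 79.3 CPM in EM (8 UMIs) and 264 CPM in PBS, a ratio of -1.74 (-2.96 to -0.74), or -0.67 without cells that carried gamma delta or NK genes. Serpinb9, the inhibitor that shields killer cells from granzyme B, stood at 89.3 CPM in EM and 393 CPM in PBS (-2.14), and Rab27a, needed to dock granules, at 29.8 CPM in EM on 3 UMIs and 129 CPM in PBS (-2.11, interval -4.40 to -0.55). Of 13 measured genes of the cytotoxic granule, 4 were higher and 9 lower, 4 of them called, with a median of -0.36. Among the 4 measured death ligand genes, Fasl and Tnfsf10 were called lower. Tnfsf10, the gene of TRAIL, stood at 109 CPM in EM and 228 CPM in PBS (-1.06). Chemokine genes did not all follow Ccl5. Ccl4 stood at 625 CPM in EM and 262 CPM in PBS, a ratio of 1.25 (0.85 to 1.64), and Ccl3 at 317 CPM in EM and 165 CPM in PBS (0.95). Ccl6 was called lower in EM, at 9.92 CPM on 1 UMI against 71.9 CPM in PBS (-2.86, interval -8.17 to -0.35). In PBS, 1 cell held 75 of its 128 UMIs.

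Inhibitory receptor genes were lower in 8 of 9 measured, with a median of -1.05 in the resident-like cells and -0.52 in the other CD8 T cells. Of the 8, 2 were called. Entpd1, the ectoenzyme CD39 that breaks down ATP, stood at 29.8 CPM in EM on 3 UMIs and 164 CPM in PBS (-2.46, interval -4.75 to -0.90), and Cd160, a receptor of cytotoxic lymphocytes, at 29.8 CPM in EM on 3 UMIs and 110 CPM in PBS (-1.89, interval -4.18 to -0.32). Lag3, an inhibitory receptor that binds MHC class II, stood at 39.7 CPM in EM and 97.8 CPM in PBS and was not called (-3.19 to 0.08). Ctla4, which competes with Cd28 for its ligands, stood at 377 CPM in EM and 651 CPM in PBS (-0.79). The gene called higher was Lgals9, a secreted lectin that binds the Havcr2 receptor, at 357 CPM in EM and 123 CPM in PBS (1.54). Since the rule removes cells with Pdcd1 and Havcr2, this list is measured in cells already low for it. Of 7 costimulatory genes, Cd28, the receptor for B7 ligands, was called higher, at 536 CPM in EM and 209 CPM in PBS (1.36, and 0.76 after thinning), while Tnfrsf9, the gene of 4-1BB, and Cd27 were called lower. The Cd27 call rested on 1 EM UMI, and its ratio of -3.11 turned to 0.20 after thinning.

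Immediate early genes, which cells switch on within minutes of a stimulus, were split with 8 of 21 called higher and 4 called lower, and a median of 0.55. Fosb, a subunit of the AP-1 factor, stood at 1032 CPM in EM and 251 CPM in PBS (2.04), and Zfp36, which destabilises cytokine mRNAs, at 615 CPM in EM and 164 CPM in PBS (1.91). Btg2, an inhibitor of growth, stood at 218 CPM in EM and 672 CPM in PBS (-1.62). Genes known to rise during tissue dissociation overlap this list. They were higher in 12 of 17, with 5 called higher and 2 lower and a median of 0.42 in the resident-like cells and 0.49 in the other CD8 T cells, and their part in the levels of Fosb, Zfp36 and Cd69 was not tested.

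Transcription factors of effector and memory cells were lower in 15 of 19 measured, with 2 called higher, 5 called lower and a median of -0.35. Bach2, a repressor that keeps memory cells quiescent, was called higher at 109 CPM in EM and 25.3 CPM in PBS (2.11). Tbx21, the gene of T-bet, was not called, at 149 CPM in EM and 190 CPM in PBS, nor was Bhlhe40, a factor that resident memory cells need, at 516 CPM in EM and 662 CPM in PBS. Runx3, which programs CD8 T cells for residency, stood at 298 CPM in EM and 341 CPM in PBS, and Eomes, a factor of memory cells, at 69.4 CPM in EM and 28.7 CPM in PBS (-0.11 to 2.42). Genes of the T cell receptor complex were higher in 10 of 23 with a median of -0.11, and Cd6, a surface co-receptor, was called lower at 69.4 CPM in EM and 256 CPM in PBS (-1.88). Glycolysis genes (median -0.29, 5 of 13 higher, 0 called), oxidative phosphorylation genes (0.05, 19 of 29 higher, 1 called) and TGF-beta response genes (-0.16, 5 of 11 higher, 1 called) lay nearer to the median of all genes measured.

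**Figure D5:**
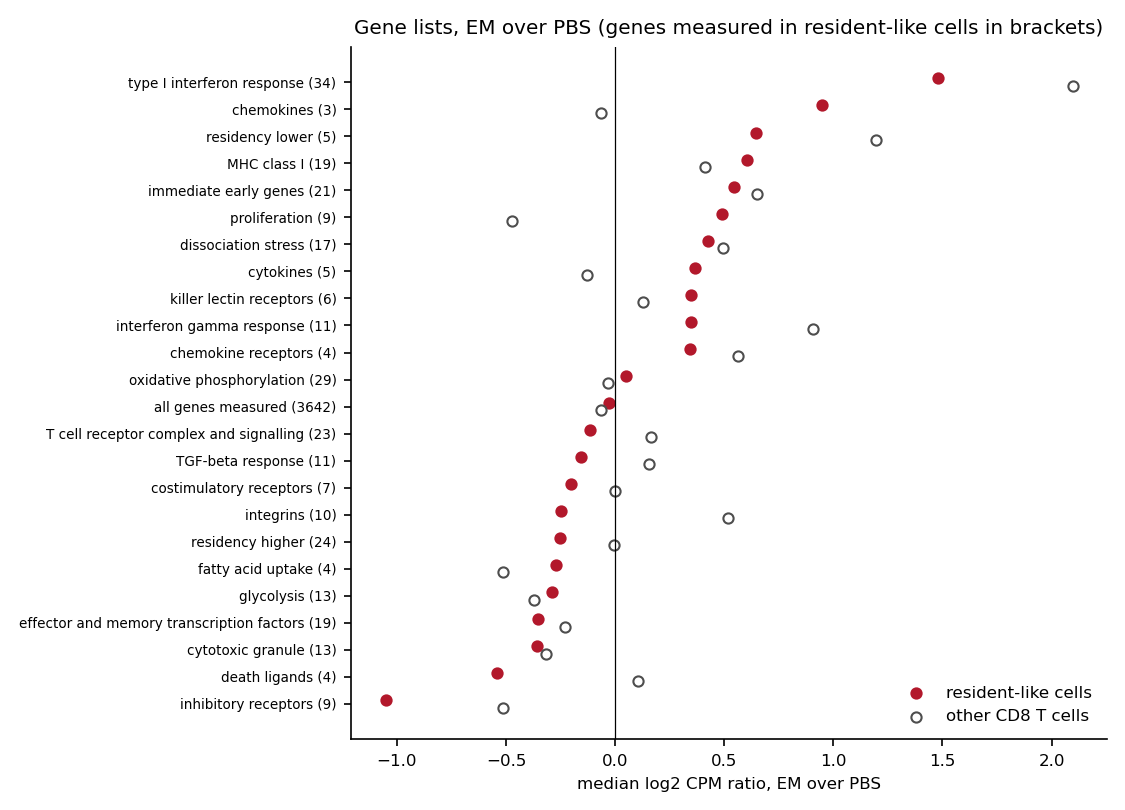
Median log2 CPM ratio of EM over PBS for each gene list with at least 3 genes measured, lists of markers of other cell types left out, in resident-like cells (filled points) and other CD8 T cells (open points), with the number of genes measured in resident-like cells in brackets. Among the lists drawn, type I interferon response lies highest in both kinds of cell, at 1.48 in resident-like and 2.10 in other CD8 T cells, and inhibitory receptors lie lowest in resident-like cells at -1.05.

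The lowest ratios of EM over PBS rested on 1 EM UMI each and are loosely bounded. Of the 12 lowest, 11 genes had 1 EM UMI, 9.92 CPM. Tshz1, a zinc finger gene, stood at 120 CPM in PBS with a ratio of -3.60 and an interval of -8.91 to -1.11. Nup98, of the nuclear pore, Pmaip1, of apoptosis, and Arid5a, which stabilises cytokine mRNAs, stood at 118, 116 and 116 CPM in PBS with ratios of -3.57, -3.55 and -3.54. Hilpda (-3.37), a lipid droplet protein gene induced by low oxygen, Tkt (-3.31), of the pentose phosphate pathway, and Cebpb (-3.13), a transcription factor gene, followed, with Pnpla7 (-3.33), Frmd4a (-3.30), Errfi1 (-3.26) and Itih5 (-3.15). The remaining gene, Apod, had 0 EM UMIs and 371 CPM in PBS, but 1 PBS cell held all 661 of its UMIs.

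A single EM resident-like cell of 8140 UMIs, the deepest of the 47, held 3508 of the 3517 UMIs of the antibody genes Igkc, Igha and Jchain, and it was also the cell with Trdc. The whole plasma cell list (4 genes) summed to 30410 CPM in EM resident-like cells and 153 CPM in PBS ones. The monocyte and macrophage list (10 genes) summed to 288 CPM in EM, with Adgre1 and Ms4a7 at 0, and 805 CPM in PBS. The NK list (7 genes), which includes Gzma, summed to 1270 CPM in EM, with Ncr1, Klrb1c, Klra8 and Klra7 at 0, and 1372 CPM in PBS. Neutrophil and erythroid lists were at 0 CPM in EM, and at 97.2 and 0 CPM in PBS. The B cell list gave 29.8 CPM in EM and 0.562 CPM in PBS.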

How the data were processed

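Endogenous immune cells sorted from mouse gliomas were profiled with the BD Rhapsody system, 1 library per treatment. The deposited files are matrices of UMI counts per gene and cell, per the file headers; reads had been processed with CASAVA 1.8 and STARsolo on mm10, per the submitters' processing notes. For the gene annotation and the calling of cells, the steps of the authors were not given in the sources used here. Cells with at least 500 UMIs, at least 200 genes and at most 20% mitochondrial UMIs were kept, and doublets were neither called nor removed.

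The members, the gene lists and the promoter set were chosen with earlier results of these data known, and the 50 CPM minimum for lists was set after the depth was seen. Counts were summed over cells and divided by the summed UMIs (CPM). Ratios have an exact conditional binomial 95% interval, levels an exact Poisson interval and shares an exact Clopper-Pearson interval, which cover counting error only. A call is a ratio of at least 2-fold whose interval leaves out equality, among genes with at least 20 UMIs. Cells are not replicates and there is 1 library per group, so a call describes these libraries. Genes were named as the 12 highest and 12 lowest called ratios of EM over PBS with at least 30 UMIs and 50 CPM, called genes at 50 CPM in both comparisons with other CD8 T cells, the 2 highest and 2 lowest of each list, and a set of T cell genes. Of 491 list genes, 8 were not found in the files, and some are not reported here. Macrophages were cells with at least 5 UMIs of C1qa, C1qb, C1qc, Lyz2 and Csf1r and 0 of Cd3d, Cd3e and Cd3g. On simulated counts for EM over PBS over 7816 genes, 99% of 4-fold higher and 95% of 4-fold lower genes were called, and 1.71% of unchanged ones. The counts were Poisson draws from 1 pooled profile at the real depths, and the changed genes were at 50 CPM or more. Differences between cells or libraries were not simulated, so these rates cover counting error only. Alternatives covered the cell filter, depth, the terms of the rule, cells of other types, the weight per cell, the scaling, the count minimum and the cells compared with. Python 3.11.15, numpy 2.4.6, scipy 1.17.1, pandas 2.3.3 and matplotlib 3.10.9 were used.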

Additional observations from a re-analysis of the deposited data

Results flagged for a closer look

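There were 7 results that went opposite ways in the groups compared, on few UMIs, and none of these differences was tested. Between EM and PBS, Neb, a muscle thin filament gene, was higher in EM resident-like cells by a log2 ratio of 2.75 (8 EM UMIs), against -1.18 in the other CD8 T cells. Smug1, a DNA repair gene, had a ratio of 2.14 in the resident-like cells (4 EM UMIs) and -1.37 in the other CD8 T cells. Fars2, a mitochondrial tRNA synthetase gene, had a ratio of 1.20 in the resident-like cells (9 EM UMIs) and -1.06 in the other CD8 T cells.

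Between resident-like and other CD8 T cells, 4 genes were called in opposite directions in the libraries. Neb had a log2 ratio of 2.09 in EM and -1.84 in PBS. Penk, which encodes an opioid peptide precursor, had a ratio of 3.13 in EM on 3 UMIs and -1.41 in PBS. Pou2f2, a lymphocyte transcription factor gene, had a ratio of 1.46 in EM on 8 UMIs and -1.003 in PBS. Eme1, a DNA repair gene, had a ratio of 2.95 in EM and -2.15 in PBS, on 3 UMIs in each.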

How the results depend on the processing

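The share ratio of EM over PBS, 0.139, was 0.193 after thinning, 0.0759 at 3 or more UMIs of Itga1 and Cxcr6, 0.0923 with both genes detected, 0.963 without the Gzmk and Ly6c2 term and 0.0761 without the Pdcd1 and Havcr2 term. Genes called higher in EM, 255 of 7998 tested, were 84 of 2314 tested after thinning. Genes called lower, 293, were 70 after thinning, 99 at 3 or more UMIs and 60 with both genes detected. They were 145 without cells that carried gamma delta or NK genes and 872 without the Gzmk and Ly6c2 term. Genes higher than in other CD8 T cells in both libraries, 5, were 3 after thinning, 2 at 3 or more UMIs, 2 with both genes detected, 3 with median-of-ratios centring, 9 with no minimum, 1 against the Itga1/Cxcr6-low cells and 20 without the Gzmk and Ly6c2 term. Genes lower in both, 15, were 0, 7 and 1 under the first 3 of these settings and 5 without cells that carried gamma delta or NK genes. They were 9 without mixed cells, 9 when each cell weighed the same and 201 without the Gzmk and Ly6c2 term. Interferon list genes higher in EM were 15 of 15 measured after thinning, against 34 of 34. Thinning before the rule leaves fewer UMIs and also changes which cells meet the rule, and the stricter rules leave fewer cells. The cause of the other shifts was not tested.

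Of 1682 alternative values of 135 called gene results, 1354 kept direction and call, 301 lost the call and 27 turned. After thinning the EM over PBS ratio turned for Cd27 (0.20), and the ratio over other CD8 T cells turned in EM for Cd27 (0.39), Nup98 (0.27), Cenpa (0.40) and Ldlrad4 (-0.18) and in PBS for Carns1 (-0.13), Pgm2l1 (-0.13) and Qpct (-0.032). At 3 or more UMIs, Ccr2 (-0.28) and Gbp3 (-0.46) turned between EM and PBS and P2rx7 (-0.29) over other CD8 T cells in EM. With both genes detected, Gbp3 (-0.15) turned between EM and PBS, and Gzma (0.24) and Smc2 (0.042) over other cells in EM. Against the Itga1/Cxcr6-low cells, Gzma turned in EM (0.38), and Cenpa (0.10), Gzmf (0.93), Racgap1 (0.77) and Smc2 (0.26) in PBS. Without the Gzmk and Ly6c2 term, Dusp10 turned between EM and PBS (0.63), and Dusp10 (0.075), Furin (-0.028), Gzma (1.38), Itgb7 (0.80) and Tox (-0.27) over other cells in EM. Ccl3 turned in PBS without the Pdcd1 and Havcr2 term (0.32), and Apod in PBS without single mixed cells (-0.35). Leaving out either term of the rule, or the single mixed cells, was chosen after seeing the data.

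No paired analysis was possible because each treatment has 1 library. With 47 EM cells, a gene with 1 EM UMI has an interval of several log2 units. A gene with 0 EM UMIs can still lie up to the limit of 29.8 CPM that a count of 0 allows.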
